A study of Drosophila melanogaster with 8 samples.

Results

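The genes of the circadian clock were examined in heads of Drosophila melanogaster fed a convulsant and then an anticonvulsant. They were taken as every array feature whose platform gene symbol is Clk, cyc, per, tim, vri, Pdp1, cwo, dco, sgg or cry. Of these 10 genes, 6 had named features, which made 16 of the 27648 features and 6 of the 6793 named genes. The flies were unmated Oregon-R wild type males, 3 to 4 days old at the start, kept at 24 °C under 12 h of light, from 9 AM to 9 PM, and 12 h of dark. In the day 14 group, drug-fed flies had 8 mg/ml pentylenetetrazole, which blocks GABA-A receptors, for 7 days, then gabapentin at 16 mg/ml for 3 days, and then normal food for 4 days. The day 10 group was sampled when the gabapentin feeding ended. Control flies were kept on normal food and moved to fresh vials on the same days. Each array set RNA from pooled heads of treated flies against RNA from the parallel control pool, with 4 arrays per day. The treated pool was in the Cy5 channel of the first 2 arrays of a day (replicates 1, 2) and in the Cy3 channel of the others (replicates 3, 4). For 3 of the 4 day 14 arrays, a line of the labels gives ETH, an abbreviation not explained there, in place of gabapentin.

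The fly clock is a transcriptional feedback loop. The proteins of Clk and cyc pair and switch on per and tim, whose products later enter the nucleus and silence their own activators, while vri and Pdp1, also switched on by the pair, repress and activate Clk. The kinases encoded by dco and sgg modify PER and TIM and set the pace, and cry encodes the blue-light receptor that marks TIM for destruction. Under light and dark cycles, transcripts of per, tim, vri and Pdp1 are known to peak around dusk or early night and those of Clk and cry around dawn. In the head, this clock runs in pacemaker neurons, photoreceptors, glia and fat body. The labels do not give the hour at which heads were collected in either group.

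The blanks in the table, left by the authors' filter on weak or irregular spots, were spread unevenly over the clock genes. Values were present on all 8 arrays for cry (CG3772), on 7 for Pdp1 (CG17888), on 5 for per (CG2647), on 4 for dco (CG2048), on 3 for Clk (CG7391) and on 1 for tim (CG3234). No feature carried the symbol of cyc (CG8727), vri (CG14029), cwo (CG17100) or sgg (CG2621). Because 12430 features had no symbol at all, these 4 genes are without a named feature and not shown to be missing from the array. A gene was tested on a day when at least 3 of its 4 arrays had a value, which left 2 clock genes, Pdp1 and cry, at day 14, and 5 at day 10, all but tim. For comparison, 38.1% of all named genes were tested at day 14 and 74.7% at day 10.

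Consecutive features of the table carry the same gene and behave like paired spots, so each reading of a clock gene can be checked against its partner. Of 30 pair readings, 15 differed by more than the median for named genes on the same array, which ran from 0.12 to 0.251 log2 units over the arrays. The pair of cry differed by 0.005 to 0.424 on the 8 arrays. The pair of Clk differed by 0.043 to 0.306 on its 3 arrays. The main pair of per differed by 0.063 to 0.234 on its 5 arrays. Other readings were not repeatable. The only tim reading had deposited log2 ratios of -1.272 and 1.005 in its spots, wider apart than 98.5% of pairs on that array. A further pair of per, read on day 10 replicate 4 alone, gave 1.798 and -4.158, a difference of 5.96. Only 14 of 36283 pair readings of named genes differed by more than 5. For dco, the first pair gave 0.313 and -0.921 on day 10 replicate 3, where a further pair gave -1.599 and -0.754.

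**Figure D1:**
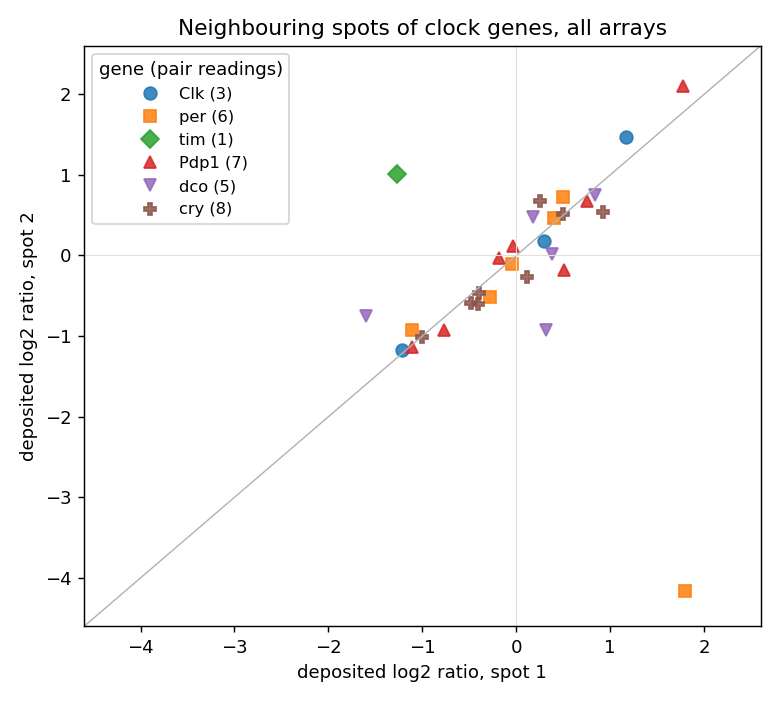
Deposited log2 ratios of the consecutive spots of each clock gene, with 1 point for each pair and array and the line of equality. Most of the 30 points lie along the line. The reading of tim and that of the further pair of per, at 1.798 and -4.158, lie far from it.

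Values below are log2 ratios read as treated over control, averaged over the spots of a gene on each array. This reading takes the deposited ratio as Cy5 over Cy3 and turns the sign of arrays with treated RNA in Cy3. The labels settle neither point, so each day mean of a tested clock gene is also given with deposited signs left as they were. The median of an array, with its sign turned where needed, was between -0.48 and 0.288 at day 14 and between -0.834 and 0.114 at day 10, and medians shifted along the table as well. Each such mean is therefore also given centred by position, that is, after subtraction of local medians over long and then short runs of consecutive features. Means of single regulator, output and marker genes are given as treated over control alone, without these alternatives.

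No clock gene passed limma's moderated test at an adjusted p under 0.05 over all genes and features tested. At day 14 this was 0 of 2 clock genes, against 0% of 6142 genes and features called, and at an unadjusted p under 0.05 it was 1 of 2, cry, which was lower, against 1.12% (0.602% lower and 0.521% higher). The unadjusted p of cry, 0.0352 by limma, was 0.0529 without day 14 replicate 1, 0.165 without replicate 3, 0.0888 without replicate 4 and 0.0844 centred by position. It stayed under 0.05 without replicate 2 (0.043), with dye as a covariate (0.0181) and with the day fitted alone (0.0218). With arrays centred on their medians it was 0.00238 (limma adjusted p = 0.979), where 282 genes and features were under 0.05. The 69 genes and features behind the 1.12% became 20 without replicate 3, 21 without replicate 4, 240 without replicate 2 and 148 without day 10 replicate 1. At day 10 it was 0 of 5, against 0% of 11312, and at an unadjusted p under 0.05 it was 0 of 5, against 5.28% (5.18% lower and 0.0972% higher). Without day 10 replicate 4 it was 2 of 5, Clk and cry, with 1866 genes and features in place of 597, and without replicate 2 it was 1 of 5, Clk, with 409. Without replicate 1 it was 0 of 5, with 370. The median of the 2 clock genes at day 14 was -0.07, against -0.0007 for all genes and features. The median of the 5 at day 10 was -0.15, against -0.25. The clearest values among the clock genes were those of cry, the light receptor, which was below 0 on 7 of 8 arrays.

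Clk, the only gene of the activating pair with values, was read on 3 arrays of day 10 and on none of day 14. It stood at -1.19 on replicate 1, 0.24 on replicate 2 and -1.32 on replicate 3. Its reading on replicate 3 was among the lowest 0.463% of 3780 named genes on that array, while on replicate 2 it was above 89.5% of 5442. The arrays thus disagreed in direction by more than the differences between its paired spots. The mean was -0.76 ± 0.36 (SE, n = 3; limma adjusted p = 0.772), or -0.51 after subtraction of the day 10 median over everything tested. The mean was -1.26 without replicate 2 and -0.48 without replicate 3, was -0.35 centred by position, and was 0.12 with deposited signs left as they were.

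Among the repressors, per had no value on replicates 1 and 2 of day 14 and stood at 0.07 on replicate 3 and 0.40 on replicate 4, too few for a test. At day 10 per stood at -1.02 on replicate 1, 0.44 on replicate 2 and 0.28 on replicate 4. The readings of the days overlapped, and 2 of 2 at day 14 and 2 of 3 at day 10 were above 0. The 2 at day 14 came from arrays with treated RNA in Cy3. They were -0.07 and -0.40 as deposited, and 0.02 and 0.21 when turned and centred on array medians. The day 10 mean was -0.10 ± 0.34 (SE, n = 3; limma adjusted p = 0.904). The value of replicate 4 averages the 4 spots described above. From the main pair alone that array stood at -0.61 with the sign turned, being 0.502 and 0.726 as deposited, and the day 10 mean of per was -0.40 (limma adjusted p = 0.772). The mean of all spots was 0.36 without replicate 1, which had the lowest array median, 0.23 centred by position, and -0.29 with deposited signs. tim, the partner of per in repression, stood at -0.13 on day 10 replicate 1, the average of spots with opposite signs, and no direction can be read from it.

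Pdp1, the activator of the second loop, was read on 3 arrays of day 14 and 4 of day 10, and its arrays differed widely. At day 14 it stood at 1.94 on replicate 1, -0.85 on replicate 2 and 0.11 on replicate 3. The replicate 1 value is a 3.84-fold ratio, above 99.9% of 1845 named genes on that array, and both spots showed it at 1.773 and 2.107. That array was the sparsest, with 76.0% of features blank, against 28.7% to 60.9% on the others. The replicate 2 value was at the 7.22 percentile of 3146 named genes, with spots at -0.773 and -0.927. At day 10 Pdp1 stood at -1.12 on replicate 1, 0.72 on replicate 2, -0.04 on replicate 3 and -0.16 on replicate 4, and the groups overlapped. With arrays centred on their medians, the SD of Pdp1 over the day 14 arrays was 1.07, wider than 99.8% of 2586 named genes, whose median SD was 0.212. At day 10 it was 0.597, wider than 72.5% of 5071 named genes, whose median SD was 0.402. Its spots differed by 0.146 to 0.334 at day 14 and by 0.019 to 0.689 at day 10, with opposite signs on day 10 replicates 3 and 4.

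The mean of Pdp1 was 0.40 ± 0.35 (SE, n = 3; limma adjusted p = 1) at day 14 and -0.15 ± 0.38 (SE, n = 4; limma adjusted p = 0.873) at day 10. The day 14 value rests on replicate 1 and was -0.37 without it, while the day 10 value was 0.17 without replicate 1 of that day. Centred by position the means were 0.56 at day 14 and 0.18 at day 10, and with deposited signs they were 0.33 and -0.05. The day difference, day 14 minus day 10, was 0.55 ± 0.48 (SE; limma adjusted p = 0.936), or -0.22 without day 14 replicate 1. Among 5187 genes and features tested for the day difference, 0% passed and 2.16% had an unadjusted p under 0.05 (0.0386% lower and 2.12% higher at day 14), and neither Pdp1 nor cry was among them.

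dco, which encodes the casein kinase 1 called Doubletime, was read on the 4 arrays of day 10 and on none of day 14. It stood at 0.20 on replicate 1, 0.80 on replicate 2, 0.74 on replicate 3 and -0.33 on replicate 4. On replicates 1, 2 and 3 it was above 91.4%, 99.0% and 93.3% of named genes, and on replicate 4 it was above 22.0%. The replicate 3 value averages 2 pairs of spots, while the other arrays had the first pair alone. With the sign turned, the first pair stood at -0.313 and 0.921 there, and the further pair at 1.599 and 0.754. The mean was 0.35 ± 0.28 (SE, n = 4; limma adjusted p = 0.772), or 0.60 after subtraction of that day's overall median. It was the only clock gene with a mean above 0 at day 10. That sign held under every one of its 25 alternatives, including 0.15 with deposited signs. Several of the 25 could not move this mean, such as leaving out a day 14 array, where dco had no value. None of the 25 took dco from its first pair alone. Centred by position it was 0.10, with array values of 0.15, 0.35, -0.21 and 0.12.

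**Figure D2:**
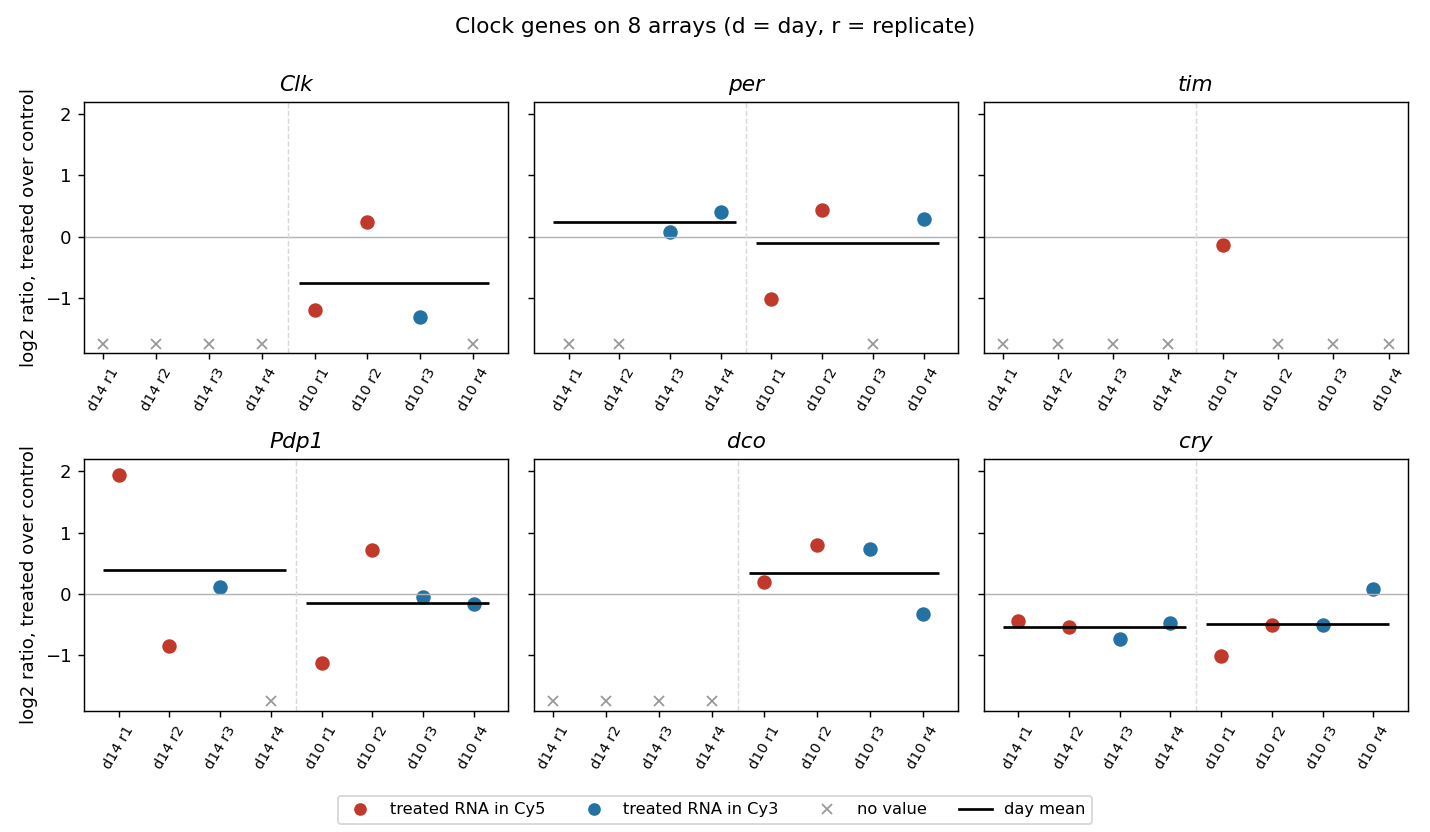
Log2 ratios of the 6 clock genes on the 8 arrays, read as treated over control, with day 14 left of day 10. Colours give the dye of the treated RNA, bars the day mean and crosses arrays with no value. The readings of cry lie below 0 on 7 arrays, and those of Pdp1 run from -1.12 to 1.94.

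cry, the light receptor, was below 0 on every day 14 array and on 3 of 4 day 10 arrays. At day 14 it stood at -0.43, -0.54, -0.73 and -0.47 on replicates 1 to 4. At day 10 it stood at -1.01, -0.50, -0.51 and 0.08. The days overlapped, and the SD was 0.134 at day 14 and 0.446 at day 10 (n = 4 each). The mean was -0.54 ± 0.25 at day 14 (SE, n = 4; limma adjusted p = 1), a 0.687-fold ratio, and -0.49 ± 0.25 at day 10 (SE, n = 4; limma adjusted p = 0.772), a 0.714-fold ratio. At day 14 its unadjusted p was the 36th smallest of 6142 by limma, among the lowest 0.586%. The day difference was -0.06 ± 0.35 (SE; limma adjusted p = 0.974). Its sign turned to 0.13 without day 10 replicate 4 and to 0.007 without day 14 replicate 3.

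Since cry had values on all 8 arrays, its mean over both days was also tested, a contrast chosen after its values were seen. It was -0.51 ± 0.18 (SE, n = 8; limma adjusted p = 0.583), and ran from -0.61 to -0.43 when each array was left out. Over the 5187 genes and features in that contrast, 0% passed, and 5.88% had an unadjusted p under 0.05, most of them lower (5.73% of all). Pdp1 stood at 0.12 ± 0.24 (SE; limma adjusted p = 0.988). Of the 898 named genes with values on all 8 arrays, 15, or 1.67%, had a mean at or below that of cry, and 80, or 8.91%, were below 0 on at least 7 arrays. Centred on array medians, cry was below 0 on 8 of 8 arrays, with a mean of -0.39.

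Within each array, cry stood lowest on 3 of the day 14 arrays. It was at the 2.68, 0.918 and 2.08 percentile of named genes on day 14 replicates 1, 3 and 4, and at the 39.8 percentile on replicate 2. At day 10 it was at the 37.3, 25.6, 11.4 and 49.2 percentile on replicates 1 to 4. Features near cry in the table were also low on day 14 replicates 1, 3 and 4, but not on day 10 replicates 3 and 4. Centred on array medians alone, cry was -0.72, -0.06, -0.79 and -0.66 on the day 14 arrays. On the day 10 arrays it was -0.18, -0.24, -0.43 and -0.03. After centring by position, cry was -0.21 ± 0.11 at day 14 (SE; limma adjusted p = 0.957) and -0.17 ± 0.11 at day 10 (SE; limma adjusted p = 0.81). It then stood at -0.32, 0.06, -0.25 and -0.32 on the day 14 arrays and at 0, 0.07, -0.49 and -0.25 on the day 10 arrays. It was thus below 0 on 5 of 8 arrays, and 54 of the 898 genes, or 6.01%, had a mean at or below its mean of -0.19.

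**Figure D3:**
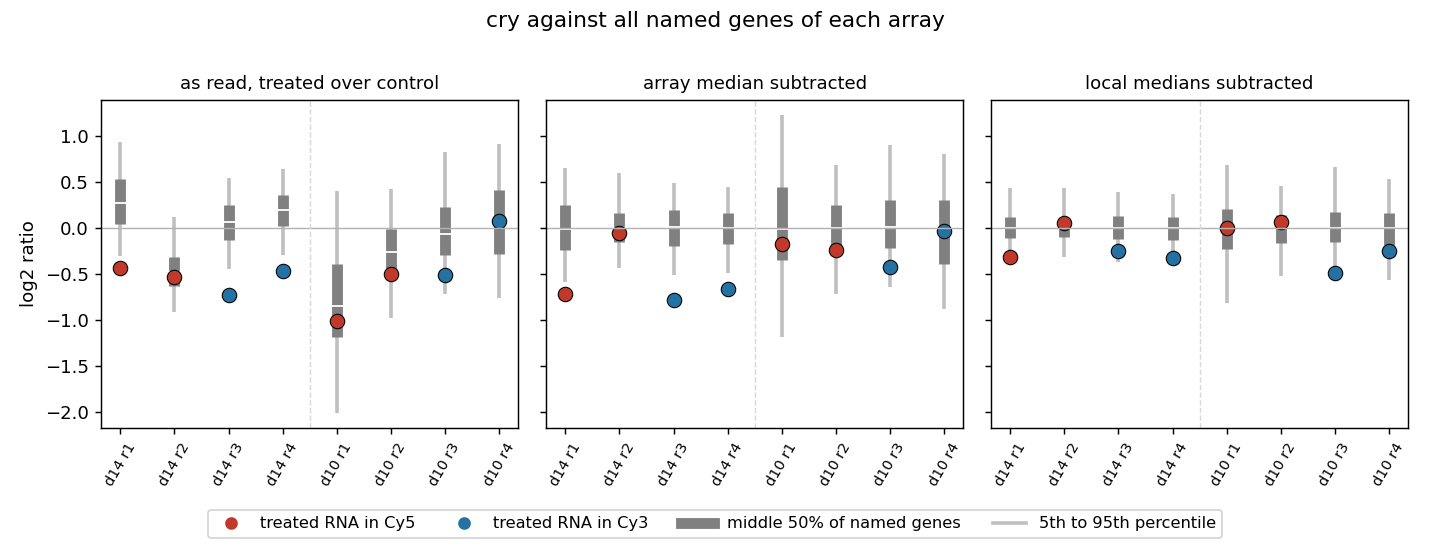
Log2 ratios of cry on each array against all named genes of that array, as read (left), minus the array median (middle) and minus local medians along the table (right). Grey bars give the middle 50% and the 5th to 95th percentile of named genes. The cry points fall below the 5th percentile on day 14 replicates 1, 3 and 4 in the left and middle panels and move closer to 0 in the right panel.

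The direction of cry depends on the reading of the dyes. As deposited it was -0.43 and -0.54 on the Cy5 arrays and 0.73 and 0.47 on the Cy3 arrays of day 14. At day 10 it was -1.01 and -0.50 on the Cy5 arrays and 0.51 and -0.08 on the Cy3 arrays. The deposited sign thus followed the dye of the treated RNA on 7 of 8 arrays. With deposited signs left as they were, the means were 0.06 at day 14 and -0.27 at day 10, and 73.4% of the 898 genes had a mean over both days at or below that of cry. With deposited signs and centring by position, cry was below 0 on 1 of 8 arrays, with a mean of 0.14. With weights set by array quality, cry passed at day 14 at -0.64 (limma adjusted p = 0.000131), where 1156 genes and features passed and replicate 3 had a weight of 6.97 against 0.27 for replicate 2. With those weights estimated and applied after centring by position, no gene or feature passed on either day.

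Differences between clock genes on the same array are free of that array's offset, but not of the shifts along the table. They were compared for genes with opposite known phases. Pdp1 minus cry was 2.37, -0.31 and 0.84 on day 14 replicates 1 to 3, and -0.11, 1.22, 0.46 and -0.24 on day 10 replicates 1 to 4. It was above 0 on 4 of 7 arrays, on 3 of 7 with deposited signs and on 5 of 7 centred by position. per minus cry was 0.81 and 0.87 at day 14 (replicates 3, 4), and -0.01, 0.94 and 0.20 at day 10 (replicates 1, 2, 4). It was above 0 on 4 of 5 arrays, but on 1 of 5 with deposited signs and on 3 of 5 centred by position. With per from its main pair of spots alone, it was -0.69 on day 10 replicate 4 and above 0 on 3 of 5 arrays. Pdp1 minus Clk was 0.07, 0.48 and 1.27 on day 10 replicates 1 to 3, above 0 on 3 of 3 arrays and on 2 of 3 with deposited signs. Centred by position it was above 0 on 3 of 3. per minus Clk, also of opposite phases, was 0.175 and 0.201 on day 10 replicates 1 and 2. Centred by position it was 0.14 and -0.09 there, above 0 on 1 of 2 arrays. For genes of the same known phase, Clk minus cry was -0.18, 0.74 and -0.81 on day 10 replicates 1 to 3. Over the 4 arrays they shared, per minus Pdp1 ran from -0.28 to 0.44, the highest being day 10 replicate 4, and from -0.45 to 0.10 with per from its main pair. Centred by position, with all spots of per, it was wider apart. It was then 0.17 on day 14 replicate 3, and -0.68, -1.205 and 1.54 on day 10 replicates 1, 2 and 4. These differences were chosen after the values were seen and were not tested.

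Among 931 named genes read on the 7 arrays of Pdp1, the profiles closest to it over those arrays were those of Dh31-R, which encodes a receptor for the neuropeptide DH31, and of CG31793. With arrays centred, their root mean square differences from Pdp1 were 0.455 and 0.483, against a median of 0.815 over all 931. On day 14 replicate 1, where Pdp1 was at 1.65 on that scale, Dh31-R was at 1.37 and CG31793 at 0.87.

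Further regulators of the clock proteins showed small ratios on both days. Of 22 listed kinases, phosphatases, ubiquitin ligases and cofactors, 9 had named features. At day 14, 5 were tested, 0 passed, 0 were lower and 0 higher at an unadjusted p under 0.05, and their median was 0.04, against -0.0007 for all tested. At day 10, 9 were tested, 0 passed and 0 had an unadjusted p under 0.05, and their median was -0.17, against -0.25 for all. CkIalpha, a casein kinase 1 related to Doubletime, had a mean of 0.17 ± 0.25 (SE) at day 14 and 0.19 ± 0.29 (SE) at day 10. jet, the F-box protein gene needed for light-driven loss of TIM, had 0.19 ± 0.26 (SE) at day 14 and -0.24 ± 0.28 (SE) at day 10. slmb, the F-box protein gene that directs PER to the proteasome, had 0.03 ± 0.26 (SE) at day 14, kay, the Fos gene, had -0.27 ± 0.26 (SE) at day 10, and tyf, which promotes the translation of per, had -0.15 ± 0.32 (SE) at day 10.

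Among neuropeptide and output genes of the clock, Nf1 lay farthest from 0 at day 10 and Hr51 at day 14. Of 23 listed genes, 14 had named features. At day 14, 11 were tested and 0 passed, with a median of 0.08, and 0 had an unadjusted p under 0.05. At day 10, 9 were tested and 0 passed, with a median of -0.21, and 1, Nf1, was lower at an unadjusted p under 0.05, against 5.18% of all genes and features lower on that rule. Nf1, a Ras regulator needed for rhythmic rest and activity, stood at 0.24, -0.43, 0.21 and 0.29 on the day 14 arrays, and at -2.20, -0.71 and 0.34 on the day 10 arrays with a value (replicates 1, 2, 4). Its mean was 0.08 ± 0.28 (SE, n = 4; limma adjusted p = 1) at day 14 and -0.86 ± 0.39 (SE, n = 3; limma adjusted p = 0.772) at day 10. Pdf, the peptide of the pacemaker neurons, had 0.02 ± 0.27 (SE) at day 14 and 0.07 ± 0.29 (SE) at day 10, and its receptor gene Pdfr had 0.19 ± 0.31 (SE) and -0.21 ± 0.30 (SE). lark, an RNA-binding protein gene of the eclosion rhythm, had -0.18 ± 0.30 (SE) at day 14 and -0.42 ± 0.28 (SE) at day 10. Of the sleep gene qvr, the means were 0.21 ± 0.29 (SE) at day 14 and 0.02 ± 0.25 (SE) at day 10, and Hr51, a nuclear receptor gene of the pacemaker neurons, had -0.23 ± 0.29 (SE) at day 14.

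**Figure D4:**
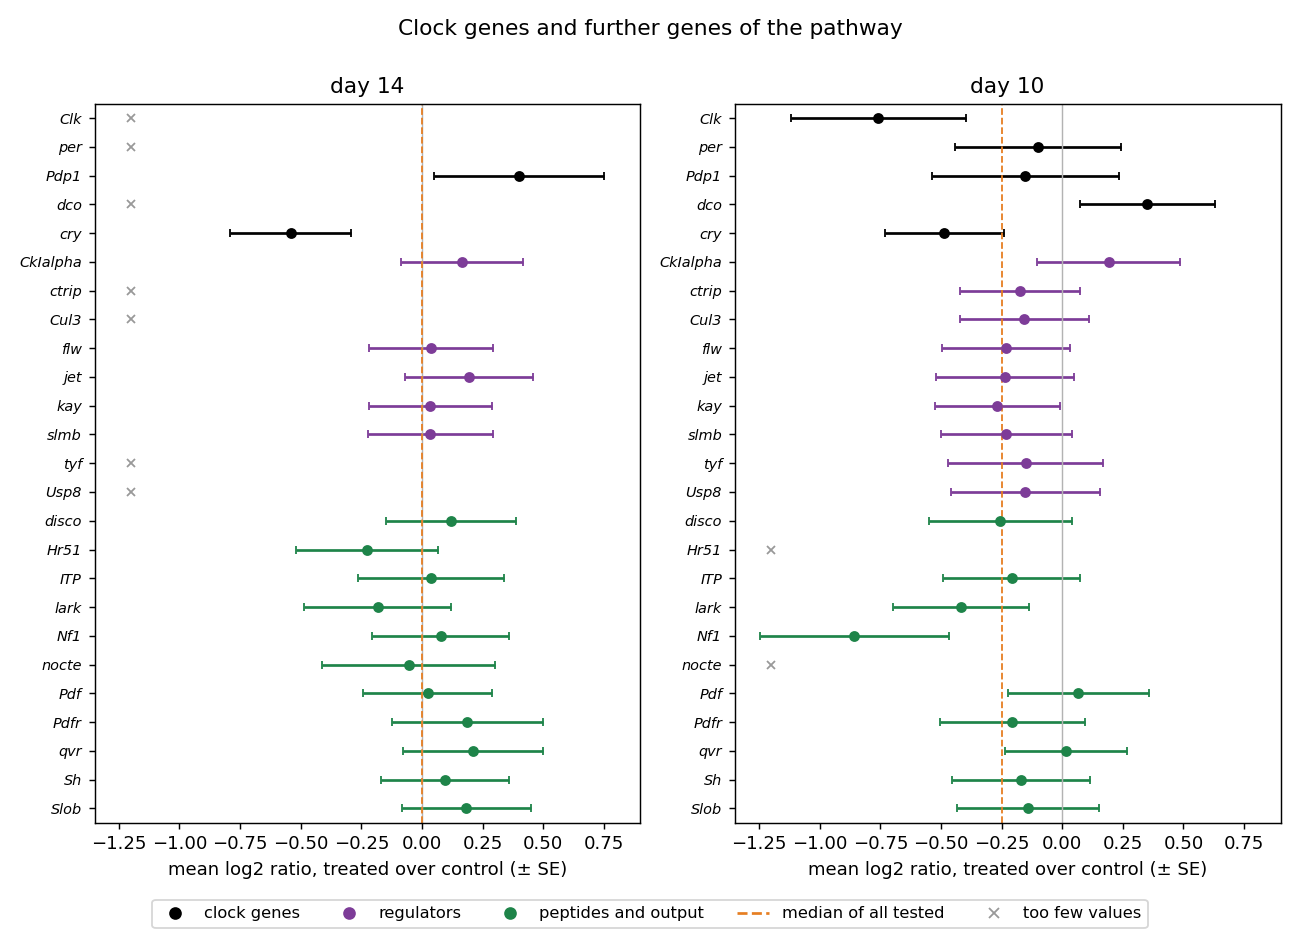
Mean log2 ratio and standard error of clock genes and of further regulators, peptide and output genes at day 14 (left) and day 10 (right), with the overall median of the day as a dashed line. At day 10 Clk at -0.76 and Nf1 at -0.86 lie lowest and dco at 0.35 highest, and at day 14 cry at -0.54 lies lowest and Pdp1 at 0.40 highest.

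Levels in the heads cannot be set against cell type markers here, because the values are ratios, and in pooled heads fewer cells of a type and less RNA per cell cannot be told apart. Marker ratios of the cell types of the head are given beside those of cry. Of 10 glial markers, 6 had named features, of which 2 to 5 had a value on a day 14 array, with 2 on replicates 1, 2 and 4, and 4 to 6 on a day 10 array. The median of those with a value, with arrays centred and turned, was below 0 on 7 of 8 arrays, between -0.38 and -0.09 at day 14 and between -0.26 and 0.11 at day 10. Of 15 photoreceptor markers, 7 had named features. With arrays centred and turned, cry was below 0 on 8 of 8 arrays, while the photoreceptor median was above 0 on Cy5 arrays and below 0 on Cy3 arrays. It was 0.06 and 0.22 on the Cy5 arrays and -0.59 and -0.66 on the Cy3 arrays of day 14, and 0.33 and 0.36 on the Cy5 arrays and -0.20 and -0.20 on the Cy3 arrays of day 10. Of 10 head fat body markers, 9 had named features, and their centred median was between -0.28 and 0.40 at day 14 and between -0.28 and 0.09 at day 10. At day 14, 6 were tested, with an uncentred median of -0.12, and 0 had an unadjusted p under 0.05. At day 10, 7 were tested, with an uncentred median of -0.45, against -0.25 for all. Of these, 2 were lower at an unadjusted p under 0.05, against 5.18% of all genes and features lower on that rule. The 2 were the storage protein gene Lsp2, at -0.27 ± 0.27 (SE) at day 14 and -1.24 ± 0.36 (SE; limma adjusted p = 0.7002) at day 10, and the lipoprotein gene apolpp, at 0.06 ± 0.26 (SE) and -0.76 ± 0.28 (SE; limma adjusted p = 0.772). In this list 4 means were below 0 and 2 above at day 14, and 6 below and 1 above at day 10. Yp2 was above 0 on both days, at 0.27 ± 0.29 (SE) at day 14 and 0.23 ± 0.42 (SE) at day 10. Of 10 muscle markers, 4 had named features, with uncentred medians over those tested of -0.13 at day 14 and -0.27 at day 10. Of 10 neuronal markers only nSyb had a named feature, with means of -0.15 at day 14 and -0.01 at day 10. No marker of these 5 lists passed the test on either day. The part of these cell types in the cry values was not tested.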

How the data were processed

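Per the labels' protocols, the authors amplified and labelled head RNA, hybridised it to spotted cDNA arrays, quantified scans with GenePix Pro 6.0, normalized ratios per array in Acuity 4.0 and left weak, saturated or irregular spots blank. What was deposited is thus 1 log2 ratio per spot and array, and base 2 was inferred from the extremes. Scanner files were not used here, so signal over background is unknown.

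Platform annotation gave 15116 features exactly 1 symbol, updated through gene identifiers in a RefSeq gene table for 14894. These were averaged per gene and array, and other features were tested alone. The moderated test of limma 3.58.1, run in R 4.3.3, estimated a mean for each day from the 8 arrays for genes and features holding at least 3 of that day's 4 values. Benjamini-Hochberg adjustment covered all of these, and the threshold was 0.05. Tested on simulated data with known changes, the fit recovered changes of 2 log2 units in 92% of cases among 6142 genes and features at day 14 and in 70.2% among 11312 at day 10, and changes of 1 log2 unit in 32% and 8.99%. Simulated noise was independent between genes and arrays, with no offset shared by an array, shift along the table or dye effect. The rates hold for that setting and not for arrays with such shifts. The series' design text calls the 4 sets of a day biological replicates. The number of arrays limits the precision. Standard errors, which also hold the offsets between arrays, had medians of 0.269 at day 14 and 0.299 at day 10.

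The clock genes, the lists of regulators, outputs and markers, the tests and the alternatives were chosen with earlier results of these data known. All clock genes are named, as are the 2 lowest and 2 highest members of the regulator and output lists on each day. Marker lists are given by counts and medians, with Lsp2, apolpp and Yp2 named after their values were seen. Genes resembling a clock gene were sought only for per, tim, vri, Pdp1 and Clk where it had at least 7 values. Alternatives covered the reading of swapped arrays, centring, filters, averaging, extreme values beyond 6 log2 units, dye, weights, a replicate block, single days and each array left out. Chosen after seeing the data were the mean over both days, unturned values with centring, weights after centring by position, and per from 1 pair of spots.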

Additional observations from a re-analysis of the deposited data

Results flagged for a closer look

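Of 29 groups of 4 arrays examined for clock, regulator and output genes, 1 held an array far from the others. Nf1 stood at -0.43 on day 14 replicate 2, against 0.21 to 0.29 on the other 3 arrays. About 5% of such groups hold such an array by chance. That array also had the lowest turned median of its day, at -0.48.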

How the results depend on the processing

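Of 257 clock gene values recomputed under alternatives, 221 kept their direction and their side of the threshold, 34 changed direction and 2 moved past the threshold. Those 2 were cry with array weights, at -0.64 at day 14 and at -0.56 (limma adjusted p = 0.000664) over both days, 1 clock gene called in each of these comparisons. Under every other alternative 0 clock genes were called on either day, for the difference and over both days. Many of the 257 values could not move, so the 221 is not a measure of stability. Leaving out a day 14 array, for example, left each day 10 mean as it was. With swapped arrays not turned, Clk at day 10 was 0.12, cry at day 14 was 0.058 and the day difference of cry was 0.33. With arrays centred, Pdp1 was 0.11 and per 0.23 at day 10. Centred by position these were 0.18 and 0.23, and with the weights as well 0.30 and 0.21. With weights alone they were 0.28 and 0.27, and the day difference of Pdp1 was -0.020. With arrays centred and not turned, cry was 0.17 at day 14, 0.011 at day 10, 0.16 for the difference and 0.089 over both days, and at day 10 Clk was 0.46, Pdp1 0.23 and per 0.12. Centred by position and not turned, cry was 0.078 at day 14, 0.20 at day 10 and 0.14 over both days, Clk was 0.30 and Pdp1 0.75 at day 10, and the difference of Pdp1 was -0.11. From Cy3 arrays alone per at day 10 was 0.28. With each array left out in turn, Pdp1 ran from -0.37 to 1.03 at day 14, from -0.44 to 0.17 at day 10, from -0.22 to 1.18 for the difference and from -0.26 to 0.44 over both days. On the same rule per ran from -0.37 to 0.36 at day 10, Clk from -1.26 to -0.48, and dco from 0.20 to 0.58. cry ran from -0.58 to -0.48 at day 14, from -0.67 to -0.31 at day 10 and from -0.23 to 0.13 for the difference. The cause of these changes was not tested.

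Over all genes and features, 0 were called on each day, for the difference and over both days, with 69 at day 14, 597 at day 10, 112 for the difference and 305 over both days at an unadjusted p under 0.05 by limma. With swapped arrays not turned, 1 was called at day 14, 57 at day 10 and 175 over both days. With arrays centred, 1 was called over both days, and with arrays centred and not turned, 3 at day 14 and 7 over both days. With values required on all 4 arrays of a day, 1 was called at day 14 and 2 over both days. With dye as a covariate, 2 were called at day 14, 12 at day 10, 2 for the difference and 38 over both days. With each day fitted alone, 2 were called at day 14 and 3 at day 10. With array weights, 1156 were called at day 14, 86 at day 10, 670 for the difference and 292 over both days. With each array left out, 0 to 1 were called at day 14, 0 at day 10, 0 to 11 for the difference and 0 to 21 over both days, the highest counts being without day 10 replicate 4. Replicate numbers shared by the days were not taken to pair the arrays, because not all 4 correlations were above 0.1: those of same-numbered arrays were 0.03, 0.37, 0.22 and 0.19 over 2217 genes and features and 2 of 4 numbers correlated best with themselves. With the replicate number as a block, 1 was called at day 14, 62 at day 10, 1 for the difference and 9 over both days. In this fit cry was -0.54 at day 14 and -0.49 at day 10 (limma adjusted p = 0.47). Its unadjusted p at day 10, 0.0487 by limma, made 1 of 4 clock genes under 0.05, as Clk was not tested with the block. Of all genes and features, 940 of 8978 were under 0.05 there. Without the block it was 0 of 5 clock genes, with 597 of 11312 genes and features. Features tested alone give no single value per gene, and days fitted alone give no difference.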
